A study of Danio rerio with 6 samples.

Results

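The microRNAs (miRNAs) of striated muscle dre-miR-1, dre-miR-206 and dre-miR-499, written below without the species prefix, were followed on a zebrafish miRNA array, where they were 3 of the 218 miRNA probes and held 36 of the 2616 miRNA spots, 12 spots per probe. Their probes were found by name. The RNA came from pooled hearts of adult Ekkwill (EK) zebrafish, a wild-type line: 3 samples of regenerating hearts collected 6 hours after part of the heart was cut away, and 3 samples of uninjured hearts, labelled 0 hours. The series' design text calls the replicates biological, and no source used here gives the number of hearts per pool. In each group 2 samples were stained with Cy3 and 1 with Cy5 (replicate 3 of the regenerating and replicate 2 of the uninjured group).

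miRNAs are short RNAs that pair through their seed, the bases near the 5′ end, with sites in messenger RNAs and lower the protein made from them. miR-1 and miR-206 share a seed and so are expected to recognise overlapping sets of messages. In mammals miR-1 is abundant in heart and skeletal muscle and favours differentiation over proliferation, miR-206 is best known from skeletal muscle, where it rises as muscle cells differentiate and after nerve injury, and miR-499 lies within a gene for a slow myosin heavy chain and promotes the slow fibre programme. Zebrafish hearts regrow lost muscle from existing heart muscle cells.

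The mature sequences targeted by the probes, as the deposited spot files give them, are shown with the seed (bases 2 to 8) in capitals, because the shared and different bases set which probes could read each other's miRNA.
miR-1: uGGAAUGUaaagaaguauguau
miR-206: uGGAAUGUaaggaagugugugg
miR-499: uUAAGACUugcagugauguuua
All 3 are 22 bases long. miR-1 and miR-206 differ at 4 positions, counted from the 5′ end, with the base of miR-1 written first: A11G, A17G, A21G and U22G. They were the only 2 of the 218 probes with the seed GGAAUGU, and no other probe had the seed of miR-499. Apart from this pair, the nearest target of any other probe lay at an edit distance of 8 from each of the 3 members. The content of G and C (GC) was 27.3% in miR-1, 45.5% in miR-206 and 31.8% in miR-499. In the GRCz12tu annotation miR-1 and miR-206 have 2 genes each, every one of which has a miR-133 gene as its nearest miRNA gene: mir1-1 has mir133a-2, mir1-2 has mir133a-1, mir206-1 has mir133b and mir206-2 has mir133c. The mir499a gene lies within myh7ba, a myosin heavy chain gene.

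The probes of miR-1 and miR-499 were bright in every heart sample, and that of miR-206 was near background in uninjured hearts and brighter in all 3 regenerating samples. After subtraction of the local background (the median of the 16 nearest empty spots), miR-206 read 2702, 458 and 146 in regenerating replicates 1, 2 and 3, against 38.5, 29.6 and 27.6 in uninjured replicates 1, 2 and 3. The groups did not overlap (9.42% of the tested probes had all regenerating samples above all uninjured ones after normalization), and the lowest regenerating sample was 3.80 times the highest uninjured one. The regenerating samples were themselves far apart, with replicate 1 at 18.4 times replicate 3, while the uninjured samples spanned 1.39 times. The ratio of group means was 34.5, from 1102 ± 1395 in regenerating and 31.9 ± 5.78 in uninjured hearts (SD, n = 3 each; exact two-sided permutation test of log2 values, p = 0.1, the smallest that 3 against 3 samples allow). It was 9.46 without regenerating replicate 1, and the ratio of geometric means over all 6 samples was 17.9. Before background subtraction the groups overlapped (1435 ± 1488 in regenerating and 274 ± 238 in uninjured hearts, SD, n = 3 each), since the local background around these spots was 383, 566 and 49.2 in regenerating replicates 1, 2 and 3 and 174, 43.5 and 510 in uninjured replicates 1, 2 and 3.

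The difference held spot by spot. The 36 miR-206 spots of the regenerating group read from 115 to 3049, and the 36 spots of the uninjured group from 1.40 to 50.2, with no overlap. Spots of 1 array are repeated readings of the same RNA and not replicates of a condition. The gap between spots therefore adds nothing to the comparison of 3 against 3 samples. How many of all probes had such a gap was not counted. The coefficient of variation of the miR-206 spots was 9.91%, 21.3% and 15.4% in regenerating replicates 1, 2 and 3, and 19.3%, 13.2% and 45.8% in uninjured replicates 1, 2 and 3.

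**Figure D1:**
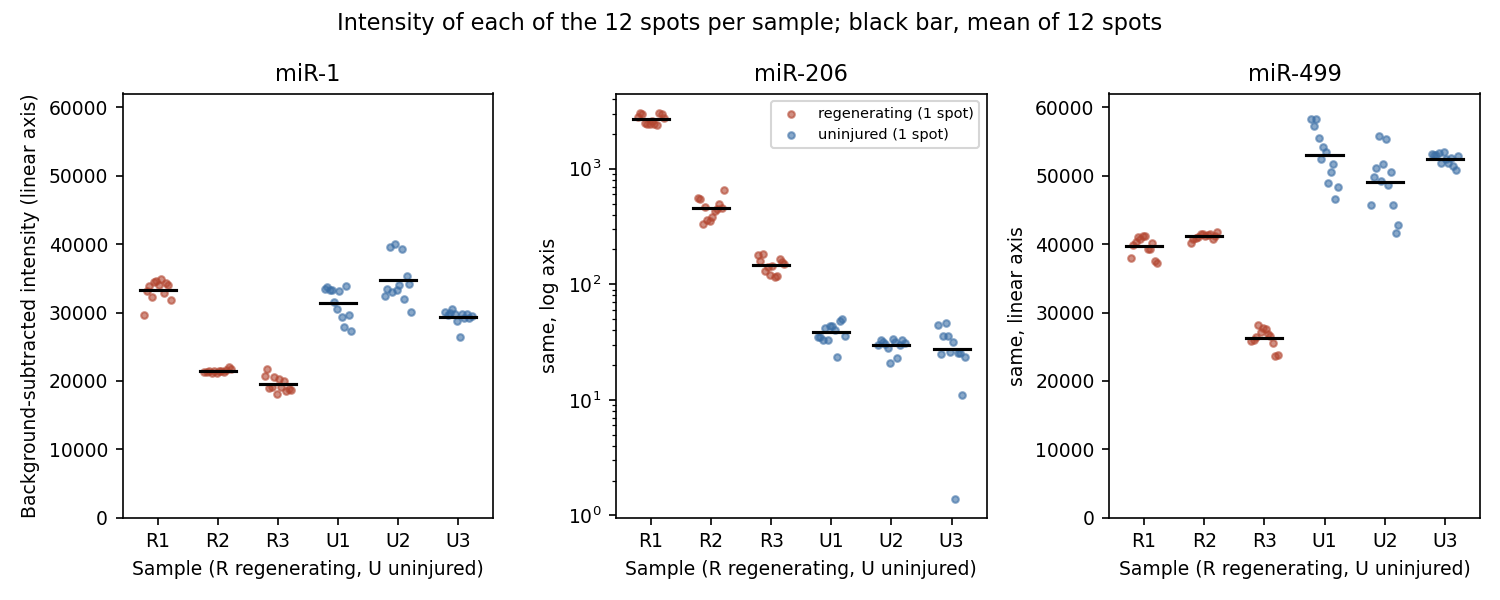
Background-subtracted intensity (vertical axis, arbitrary units, linear for miR-1 and miR-499 and logarithmic for miR-206) of the 12 spots of each probe in regenerating (R) and uninjured (U) samples, with black bars at the mean of 12 spots. For miR-206 the 36 regenerating spots start at 115 and the 36 uninjured spots end at 50.2, while miR-1 overlaps between the groups.

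In uninjured hearts miR-206 was close to the limit of detection, which was set at 3 SDs of the empty spots. Its mean stood at 2.25 and 2.76 times that limit in uninjured replicates 1 and 2 and at 0.896 times in replicate 3, so it counted as detected in 2 of 3. In regenerating replicates 1, 2 and 3 it stood at 72.6, 3.22 and 8.50 times the limit and was detected in all 3. Regenerating replicate 2 was thus nearly as close to its limit as uninjured replicate 2. Regenerating replicate 1 stood apart in that 217 of the 218 probes counted as detected there, against 110 and 124 in the other regenerating samples and 132 to 144 in the uninjured ones. The 64 probes that were below the limit in all 3 uninjured samples were read for comparison, and their median was 48.3, 69.8 and 4.66 in regenerating replicates 1, 2 and 3, and 11.4, 1.42 and 16.5 in uninjured replicates 1, 2 and 3. Of these 64 probes, 0 read above miR-206 in any regenerating sample. The brightest of them read 89.6, 229 and 21.3 in regenerating replicates 1, 2 and 3, against the 2702, 458 and 146 of miR-206. Divided by the median of the 64 on the same array, miR-206 stood at 55.9, 6.55 and 31.4 in regenerating replicates 1, 2 and 3. In uninjured replicates 1, 2 and 3 it stood at 3.38, 20.9 and 1.67, so on this scale the groups overlapped. The overlap comes from the 20.9, which was a division by the small median of 1.42. The 31.4 of regenerating replicate 3 also rests on a small median, 4.66, so such ratios are imprecise. In uninjured replicate 3, 2 of the 64 read above miR-206. In uninjured replicates 1 and 2, 0 did so by construction, since miR-206 passed the limit there and the 64 did not. The 64 were thus chosen to be dim, and setting miR-206 beside them is a description and not a test.

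With the values normalized between arrays, miR-206 did not pass the test over all probes, although only 1 probe had a larger change in either direction. Intensities were corrected for background, converted to log2, averaged over spots and quantile-normalized over the 218 miRNA probes, and the 138 probes detected in at least 3 samples were tested in limma with a term for dye. The normalized log2 level of miR-206 was 11.03, 9.02 and 8.37 in regenerating replicates 1, 2 and 3, against 7.10, 7.16 and 6.75 in uninjured replicates 1, 2 and 3. Its log2 difference was 2.47, with an SE of 0.63 (limma adjusted p = 0.115). The 95% interval ran from 0.91 to 4.04, or from 1.87-fold to 16.4-fold higher. Of the 138 probes 5 passed (3.62%), 2 of them higher (1.45%) and 3 lower (2.17%), and of the 3 members 0 passed. The groups did not overlap for 33 of the 138 probes (23.9%), in 20 of which the regenerating samples were lower (14.5%), and miR-206 was the only member among the 33. Among the 2 Cy3 samples of each group the log2 difference of miR-206 was 3.10, and between the single Cy5 samples it was 1.21, so the direction was the same with both dyes.

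The call for miR-206 differed with the samples, the scaling and the error model used. At the same log2 change of 2.47 it passed with a mean-dependent variance prior (eBayes trend, SE 0.49, limma adjusted p = 0.00823). It also passed with regenerating replicate 1 and uninjured replicate 2 as a block (SE 0.21, limma adjusted p = 0.00374), in which 9 of the 138 probes passed. Of the pairs of opposite dye, the empty spots of this pair correlated best after local background was subtracted (rho 0.46). With 1 background per array its rho was 0.0025, and regenerating replicates 1 and 3 correlated best (rho 0.34). With that second pair as a block miR-206 stood at 1.68. Both samples of the second pair were regenerating, so the block absorbed their mean level. Regenerating replicate 2 alone then set the level of its group, and that fit cannot be weighed against the first block. Whether any samples shared an array is stated in no source used here. Without regenerating replicate 1, its highest sample, the log2 change was smaller, 1.76 (SE 0.25), and passed (limma adjusted p = 0.0135). In that fit 29 of the 138 probes passed, 12 higher and 17 lower, against 5 with all samples. Without each of the other 5 samples it did not pass, at log2 changes of 2.14 to 3.14. Leaving out a Cy5 sample (3.14 without regenerating replicate 3 and 2.93 without uninjured replicate 2) let the dye term absorb the remaining Cy5 sample. Those fits therefore compared the Cy3 samples alone. It passed at 3.29 (SE 0.45, limma adjusted p = 0.00276) when each array was scaled to its 75th percentile and at 3.52 (SE 0.42, limma adjusted p = 0.00201) when scaled to its median. In the processed values of the authors' deposited table, which were scaled by a method that no source used here states, miR-206 stood at 1717, 289 and 224 in regenerating replicates 1, 2 and 3 and at 45.6, 49.2 and 24.1 in uninjured replicates 1, 2 and 3. On the log2 scale the difference was 3.67 (SE 0.82 and limma adjusted p = 0.0730), and the groups again did not overlap.

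miR-1 showed no difference larger than the spread between samples. Its background-subtracted intensity was 33321, 21461 and 19575 in regenerating replicates 1, 2 and 3, against 31434, 34708 and 29386 in uninjured replicates 1, 2 and 3. Regenerating replicate 1 lay among the uninjured samples and the other 2 regenerating samples below them, so the groups overlapped. The group means were 24786 ± 7452 in regenerating and 31843 ± 2685 in uninjured hearts (SD, n = 3 each; exact two-sided permutation test of log2 values, p = 0.3, where 3 against 3 samples allow no p below 0.1). In the authors' deposited table miR-1 stood at 23280, 20026 and 19908 in regenerating replicates 1, 2 and 3 and at 26229, 22014 and 19762 in uninjured replicates 1, 2 and 3, also overlapping. After quantile normalization it stood at -0.047 in log2 (SE 0.13 and limma adjusted p = 0.845), with a 95% interval from -0.37 to 0.28.

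miR-499 read lower in regenerating hearts before arrays were scaled to each other, and the size and sign of this difference varied with the scaling. It did not pass in limma under any scaling tried. Its background-subtracted intensity was 39646, 41129 and 26270 in regenerating replicates 1, 2 and 3, against 52957, 48999 and 52462 in uninjured replicates 1, 2 and 3. All 3 regenerating samples lay below all 3 uninjured samples, with replicate 3 (Cy5) the lowest, and the ratio of group means was 0.693 (exact two-sided permutation test of log2 values, p = 0.1, the smallest that 3 against 3 samples allow). The share of all probes that lay so before scaling was not counted, and the median log2 change of the tested probes was -0.29 without scaling. After quantile normalization 14.5% of the tested probes lay so, and miR-499 was not among them. Intensity before scaling also carries the overall brightness of each array: the background-subtracted sum over the 218 miRNA probes was 936837, 629717 and 553598 in regenerating replicates 1, 2 and 3, against 835462, 1013820 and 960572 in uninjured replicates 1, 2 and 3. In the authors' deposited table miR-499 stood at 29140, 36004 and 25778 in regenerating replicates 1, 2 and 3, and at 49763, 33229 and 37200 in uninjured replicates 1, 2 and 3. There the groups overlapped, and the log2 difference was -0.40 (SE 0.20 and limma adjusted p = 0.338). No spot on any array reached 65000; the brightest read 58536.

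Quantile normalization, the scaling used in the test above, could hardly show a change of miR-499. That step gives every array the same set of values and so keeps only a probe's rank. miR-499 was the brightest miRNA probe in 5 of the 6 samples and ranked 2 in regenerating replicate 3, so its normalized log2 level was 15.38 in those 5 by construction and 15.15 in the remaining sample. It stood there at a log2 difference of -0.074 (SE 0.12 and limma adjusted p = 0.785), with a 95% interval from -0.38 to 0.23 that does not cover this effect of the ranks. miR-1, at ranks 5 to 9, was limited in the same way, with 4 different values over the 6 samples. Ranks of brightness compare probes, which bind with different strength, and not amounts of the miRNAs.

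Scalings that keep the distances between probes gave wider ranges for both bright members. With each array scaled to its 75th percentile, its median or its calibration spots (added sequences, assumed here to be equal in amount), or with no scaling between arrays, the median log2 change of all tested probes was 0.13, 0.36, -0.73 and -0.29. In these 4 fits miR-1 stood at 0.032, 0.26, -0.83 and -0.39, and miR-499 at -0.13, 0.10, -0.99 and -0.55. Less the median of all probes, which such scalings leave in place by construction, miR-1 was at -0.099, miR-499 at -0.26 and miR-206 at 3.16. With cyclic loess, miR-1 stood at -0.068, miR-499 at -0.32 and miR-206 at 2.76. Neither miR-1 nor miR-499 passed in any of these fits. Their sign turned to 0.56 for miR-1 and 0.38 for miR-499 when a linear trend with the GC content of the target was removed from each array (limma adjusted p = 0.161 and 0.188), and miR-206 stood at 2.46.

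**Figure D2:**
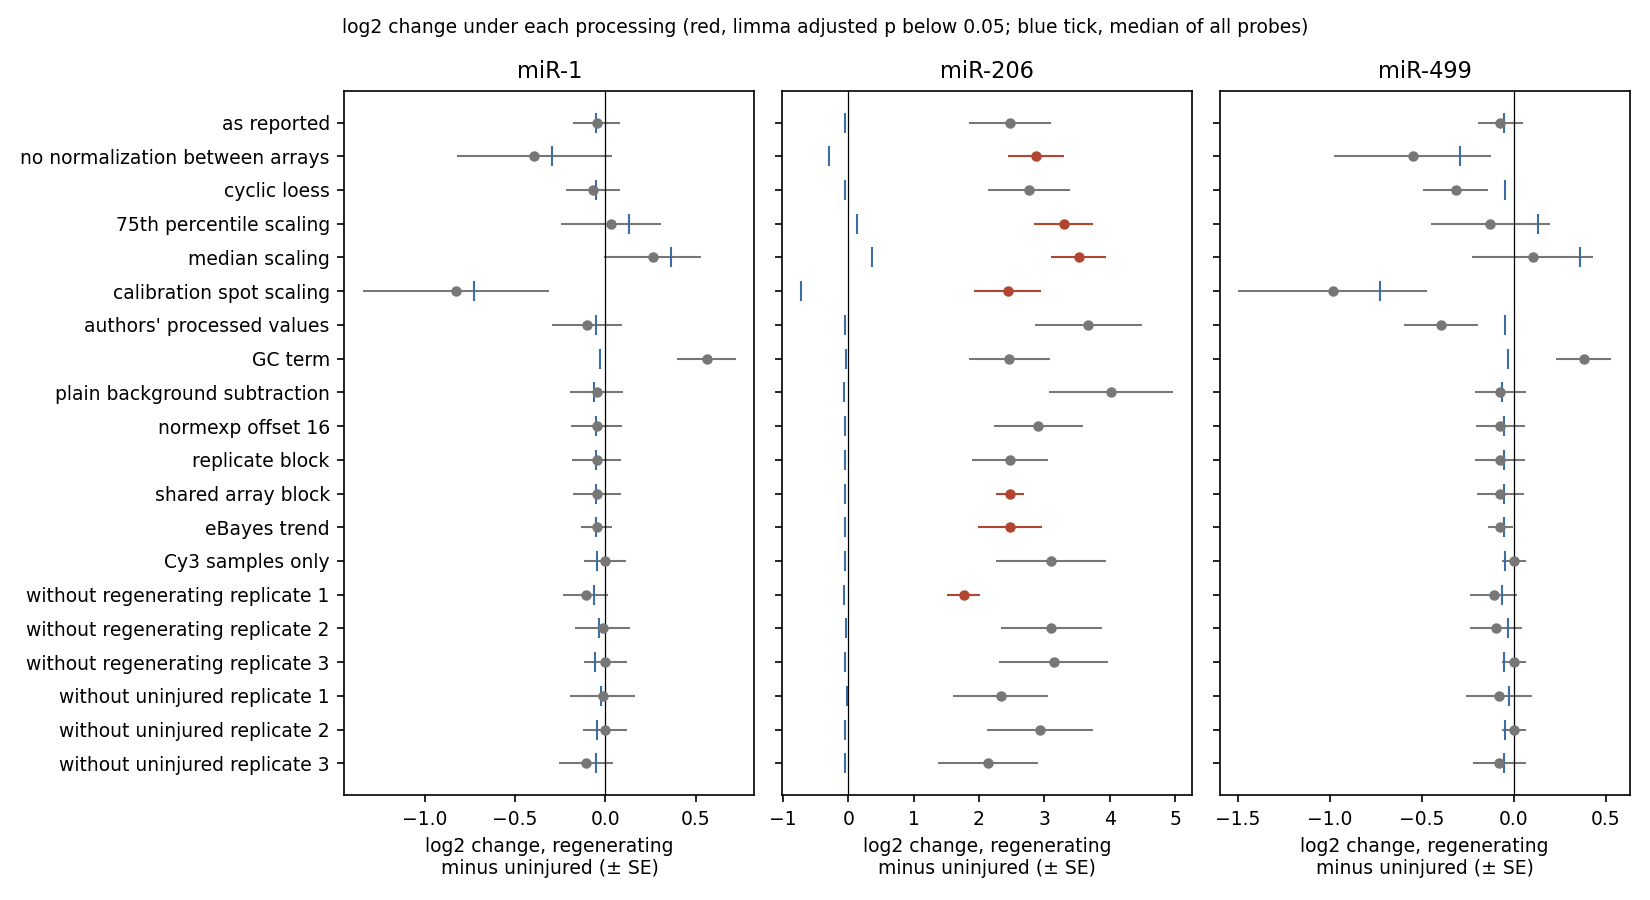
The log2 change of each member (horizontal axis, regenerating minus uninjured, with SE bars) under 20 ways of processing and leaving out samples (vertical axis), with blue ticks at the median of all probes tested. miR-206 lies between 1.76 and 4.02 in the settings shown, while miR-1 and miR-499 lie on both sides of 0. The shared array block is that of regenerating replicate 1 and uninjured replicate 2. Whether these samples shared an array is stated in no source used here.

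A factor shared by a whole array cancels in a difference between bright probes of that array. The members were therefore also compared within each array, on log2 values before scaling. For a dim probe such a factor does not cancel fully, because the offset of 50 is added before log2. In uninjured samples miR-206 read 27.6 to 38.5, below that offset, which also narrows the spread of its differences there. The difference of miR-206 minus miR-1 was -3.59, -5.12 and -6.52 in regenerating replicates 1, 2 and 3, against -8.30, -8.64 and -8.07 in uninjured replicates 1, 2 and 3. The groups did not overlap. The means were -5.08 ± 1.47 in regenerating and -8.34 ± 0.29 in uninjured hearts (SD, n = 3 each), so miR-206 gained 3.26 log2 units on miR-1, or 9.60-fold (exact two-sided permutation test, p = 0.1, the smallest these groups allow). Against miR-499 the gain was 3.42 log2 units, or 10.7-fold, from -5.61 ± 1.60 in regenerating and -9.03 ± 0.12 in uninjured hearts, again without overlap (SD, n = 3 each; exact p = 0.1). How many of all probes also lacked overlap in their difference to miR-1 or miR-499 was not counted. After normalization the groups did not overlap for 23.9% of the tested probes, 9.42% with the regenerating samples above. Without regenerating replicate 1 the gains of miR-206 were 2.52 and 2.53. They depend on how background is treated, since miR-206 lay near the detection limit in uninjured samples: with plain subtraction in place of normexp and its offset of 50 they were 4.66 and 4.82 log2 units. Between the other two members no such difference was seen: miR-499 minus miR-1 was 0.54 ± 0.35 in regenerating and 0.69 ± 0.18 in uninjured hearts (SD, n = 3 each), a difference of -0.16 within the spread between samples (exact p = 0.6). These 3 comparisons share their samples, and Benjamini-Hochberg adjustment of the exact p-values over them gives 0.15, 0.15 and 0.6.

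**Figure D3:**
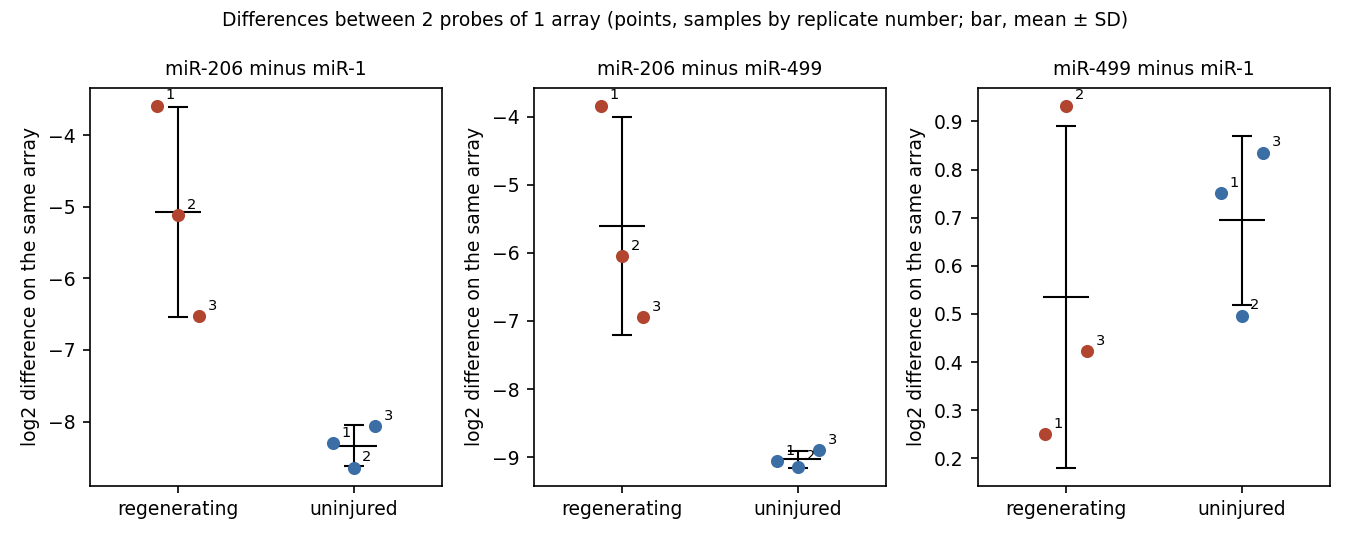
The log2 difference between 2 members on the same array (vertical axis) in regenerating and uninjured samples, with points numbered by replicate and bars for the mean and SD of 3 samples. For miR-206 minus miR-1 the regenerating samples lie between -6.52 and -3.59 and the uninjured ones between -8.64 and -8.07, while miR-499 minus miR-1 overlaps.

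The miR-1 probe was bright in samples with bright and with dim miR-206 probes. In the regenerating samples miR-1 read 19575 to 33321 and miR-206 read 146 to 2702. In the uninjured samples miR-1 read 29386 to 34708 and miR-206 read 27.6 to 38.5. Binding of miR-1 to the miR-206 probe was not tested.

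Besides these 3, the muscle list used here held probes of the miR-133 family. In mammals that family restrains proliferation of heart muscle cells and is transcribed together with miR-1 or miR-206. The list of heart and skeletal muscle miRNAs held 8 probes, of which 7 were tested: 0 rose, 0 fell and 7 did not pass. Of all 138 tested probes 5 passed (3.62%), so 0 of 7 is close to that share. Of the 7, 4 lay above 0 and 3 below. The median log2 change of the 7 was 0.20, against -0.052 over all 138 probes. The other arm of miR-133b, miR-133b*, was not tested. It was detected in 0 uninjured samples and in 1 regenerating sample, replicate 1, where nearly all probes counted as detected. Of the miR-133 probes tested, miR-133a was 0.28 higher in log2 (SE 0.12 and limma adjusted p = 0.294). Its groups did not overlap, and 9.42% of the tested probes had all regenerating samples above all uninjured ones. miR-133b stood at 0.20 and miR-133a* at -0.26, with overlapping groups.

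miR-133c has its gene beside mir206-2, and its order over the regenerating samples differed from that of miR-206. The normalized log2 level of miR-133c was 10.34, 11.72 and 11.56 in regenerating replicates 1, 2 and 3, against 8.89, 9.33 and 10.66 in uninjured replicates 1, 2 and 3. Regenerating replicate 1, the highest sample for miR-206 at 11.03, was on this scale the lowest of its group for miR-133c and lay below uninjured replicate 3. Before normalization miR-133c read 1965, 2038 and 1544 in regenerating replicates 1, 2 and 3, against 351, 727 and 2194 in uninjured replicates 1, 2 and 3. There replicate 1 lay close to replicate 2, the highest of the regenerating group. The log2 difference of miR-133c, 1.58 (SE 0.59 and limma adjusted p = 0.220), did not pass. miR-133b, whose gene lies beside mir206-1, was at 13.71, 13.71 and 13.11 in regenerating replicates 1, 2 and 3 and at 13.29, 13.29 and 13.35 in uninjured replicates 1, 2 and 3. The targets of miR-133a and miR-133b differ by G22A alone (the base of miR-133a first, counted from the 5′ end), and how far the miR-133 probes share signal was not tested.
miR-133a: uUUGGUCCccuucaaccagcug
miR-133b: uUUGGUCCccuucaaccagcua
miR-133c: uUUGGUCCcuuucaaccagcua
The 3 sequences, shown to set the miR-133 family beside its genomic neighbours, share the seed UUGGUCC, which differs from the seeds of miR-1, miR-206 and miR-499.

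**Figure D4:**
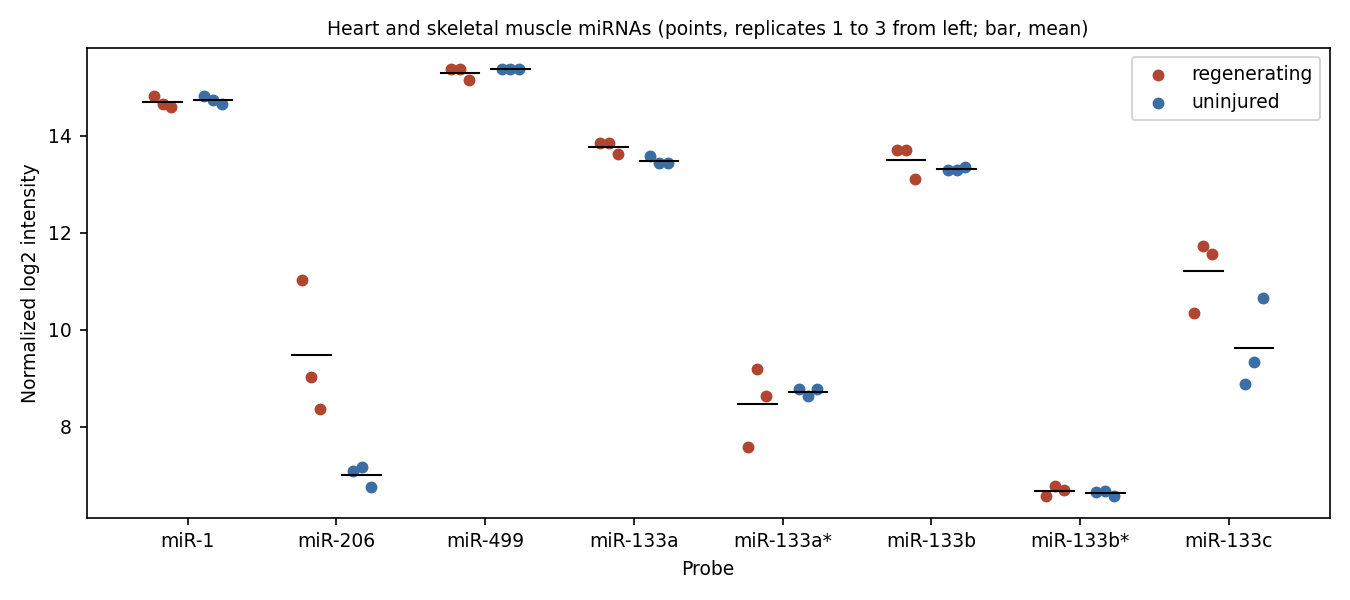
Normalized log2 intensity (vertical axis) of the 8 heart and skeletal muscle probes (horizontal axis) in regenerating and uninjured samples, with 1 point per sample and bars at the mean of 3. Points of miR-206, at 8.37 to 11.03 in regenerating and 6.75 to 7.16 in uninjured samples, and of miR-133a do not overlap between groups. Over all tested probes 9.42% had the regenerating samples above in this way.

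Likeness between probes was measured as the root mean square difference of their normalized log2 levels over the 6 samples, each probe centred on its own mean. Nearest to miR-206 were miR-738 (0.96), then miR-129 (0.97) and miR-122 (1.03), against a median of 1.5 over the 137 other probes, so even the nearest differed from it by about 1 log2 unit. miR-738 and miR-129 were among the 5 probes that passed, at log2 changes of 2.81 and 1.28 (limma adjusted p = 0.0029 and 0.0087). In both, replicate 2 was the highest regenerating sample, not replicate 1. miR-122, the main miRNA of liver cells, was at 8.57, 7.06 and 6.81 in regenerating replicates 1, 2 and 3, against 7.11, 7.11 and 6.79 in uninjured replicates 1, 2 and 3, so that only regenerating replicate 1 stood above the uninjured samples. In the regenerating group miR-122 was detected in replicate 1 alone. For miR-1 the nearest were miR-455 at 0.060, miR-499 at 0.071 and miR-217 at 0.075. For miR-499 they were miR-455 at 0.030, miR-26a at 0.035 and miR-26b at 0.040. Shared ranks tied levels of miR-499, miR-26a and miR-26b over samples, and those of miR-455 over the uninjured samples. The level of miR-217 differed in every sample.

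Markers of other cell types were read beside miR-206. miR-122 read 396, 116 and 11 before normalization in regenerating replicates 1, 2 and 3, against 38.5, 26.7 and 32.3 in uninjured replicates 1, 2 and 3. Its order over the regenerating samples was that of miR-206, with replicate 1 the highest and replicate 3 the lowest. However, miR-122 was detected only in replicate 1 of that group, and in all uninjured samples. In regenerating replicates 2 and 3 it read below the detection limits of 142 and 17.2, so their order does not measure its level. Regenerating replicate 3 lay below the uninjured samples for miR-122 and above them for miR-206. The target of miR-122 is also the nearest to that of miR-206 after miR-1, at an edit distance of 8. Whether these probes share signal was not tested. The brain miRNAs miR-9 and miR-124 summed to 8.70 to 141 in regenerating and 7.72 to 36.1 in uninjured samples. Each was detected in 0 uninjured samples and in 1 regenerating sample, replicate 1, where 217 of the 218 probes counted as detected. There miR-9 read 45.8 and miR-124 72.0, against a detection limit of 37.2. The 64 probes below the limit in all uninjured samples had a median of 48.3 on that array. In regenerating replicate 2, the source of the 141, miR-9 and miR-124 read 70.4 and 71.0, each below the detection limit of 142. The red blood cell miRNAs miR-451 and miR-144 summed to 17097 to 25475 in regenerating and 21600 to 27803 in uninjured samples. The endothelial miR-126 and miR-126* summed to 26596 to 38726 in regenerating and 38420 to 41223 in uninjured samples. Smooth muscle miR-143 and miR-145 summed to 8432 to 17370 in regenerating and 18151 to 18851 in uninjured samples. The leukocyte miRNAs miR-223, miR-142a-3p and miR-142a-5p summed to 748 to 875 in regenerating and 222 to 953 in uninjured samples. All these sums were taken before arrays were scaled to each other and so also carry the overall brightness of each array. The sum over all miRNA probes was 629717 and 553598 in regenerating replicates 2 and 3, below the 835462 to 1013820 of uninjured samples. In regenerating replicate 1 it was 936837, within the uninjured range. Whether the endothelial and smooth muscle sums reflect the number of such cells was not tested. Of the 12 probes on these 6 lists 7 were tested, of which 0 rose and 0 fell, where 3.62% of all 138 tested probes passed. After normalization miR-223 and miR-145 had all regenerating samples above all uninjured ones, at log2 differences of 1.16 and 0.44, as did 9.42% of the 138 tested probes. The groups overlapped for miR-122 at 0.48, miR-126 at 0.10, miR-451 at 0.067, miR-143 at -0.19 and miR-126* at -0.27. Both miR-142a probes, each detected in 0 uninjured samples and only in replicate 1 of the regenerating ones, were not tested. They read 44.6 and 38.5 there, just above the limit of 37.2. The part of other cell types in the result for miR-206 was not tested, and in such whole-tissue samples fewer cells of a type and less RNA per cell cannot be told apart.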

How the data were processed

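Small RNA was size-selected, tailed, tagged and dyed with Cy3 or Cy5 by a service provider, per the labels' protocols. The deposited spot files give linear intensity per spot, per the file headers, and empty spots in them read above 0. No source used here names the scanner or its software. The deposited series table holds the authors' processed intensities, linear; no source used here states how its background and scale were treated. On the log2 scale each column had r between 0.950 and 0.988 with that array's unscaled spot means across 218 probes, which are not independent replicates. Column medians ran from 41.0 to 63.6 over all probes of that table and from 68.9 to 91.9 over the 218 miRNA probes.

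Local background (16 nearest of 1060 empty spots) was corrected with normexp (offset 50, which pulls changes of dim probes towards 0) in limma 3.58.1 under R 4.3.3, followed by log2, the mean of 12 spots and quantile normalization over 218 probes. Groups were compared with lmFit and eBayes with a dye term, with Benjamini-Hochberg adjustment over 138 probes and a threshold of 0.05. The members, the lists, the tests and the rule for named probes (the members, the other muscle probes, probes sharing a seed, those at an edit distance of at most 5 and the 3 nearest in profile to each member) were chosen with earlier results of these data known. Settings were tested on simulated spots. The number of arrays limits the precision.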

Additional observations from a re-analysis of the deposited data

How the results depend on the processing

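Over 24 alternatives miR-206 stayed above 0, at log2 changes of 1.68 to 4.02, and passed in 7 of them (limma adjusted p from 9.5e-09 to 0.371). Those 7 included 75th percentile scaling at 3.29, median scaling at 3.52, calibration spot scaling at 2.44 and no scaling between arrays at 2.87 (added after the data were examined). The rest of the 7 were the block of regenerating replicate 1 and uninjured replicate 2 at 2.47, an eBayes trend at 2.47 and the fit without regenerating replicate 1 at 1.76. With calibration scaling and with no scaling limma gave every probe the same SE, so the spread of miR-206 itself did not enter its p there. The pair of that block (regenerating replicate 1 and uninjured replicate 2) was picked by the correlation of empty spots after local background. The pair picked with 1 background per array (regenerating replicates 1 and 3), added after the data were examined, gave miR-206 at 1.68, the lowest of the 24. Both samples of that second pair were regenerating, so regenerating replicate 2 alone set the level of its group there. miR-206 was not among the probes detected in all 6 samples, so that filter gave no value for it. With 1 sample left out miR-206 ran from 1.76 to 3.14. miR-1 and miR-499 passed in 0 of 25 alternatives each, and the sign turned for miR-1 with 75th percentile scaling (0.032), median scaling (0.26) and the GC term (0.56), and for miR-499 with median scaling (0.10) and the GC term (0.38). Both were exactly 0 with the Cy3 samples only and without either Cy5 sample, by their shared ranks, and miR-499 also with the median of spots; with 1 sample left out miR-1 ran from -0.11 to 0 and miR-499 from -0.11 to 0.

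With plain background subtraction the gain of miR-206 within arrays was 4.66 over miR-1 and 4.82 over miR-499. The 5 probes called became 3 with plain subtraction, 22 with calibration scaling, 11 with no scaling, 0 with Cy3 samples only and 1 with the replicate block. They became 9 with the block of regenerating replicate 1 and uninjured replicate 2, 3 with an eBayes trend and 3 with the GC term. Leaving out 1 sample gave 0 to 29. The counts of 0 came from limma fits on the Cy3 samples or without a Cy5 sample, where 18 to 19 probes had an unadjusted p below 0.05. Of the 5 calls 2 were higher and 3 lower, against 5 and 0 with 75th percentile, 7 and 0 with median and 2 and 20 with calibration and 3 and 8 with no scaling. Deviations of normalized log2 levels from the group means correlated at 0.14, -0.45 and 0.37 between samples of the same number (138 probes). With so few samples these correlations cannot settle whether the numbers pair the samples. With the replicate block miR-206 stood at 2.47 (limma adjusted p = 0.170), miR-1 at -0.047 and miR-499 at -0.074. miR-206 lay near the detection limit in the uninjured samples, which limits the precision of its fold change.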
